A study of Rattus norvegicus with 54 samples.

Results

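Neural progenitor cell (NPC) cultures grown from the caudal spinal cord of Dark Agouti rats with experimental autoimmune encephalomyelitis (EAE) were set against cultures from the cervical cord of EAE rats. EAE, an induced inflammation of brain and cord, is a laboratory model for multiple sclerosis. The members were taken by their sample labels and not by measured values: 3 undifferentiated caudal EAE cultures and 3 undifferentiated cervical EAE cultures, or 6 of the 54 arrays in the series. Both groups share the strain, the disease state, harvest after passage 2 and growth without differentiation. The sources used here give neither age nor the way EAE was induced. Undifferentiated thoracic EAE cultures, caudal and cervical cultures of naive rats, and caudal and cervical cultures differentiated for 5 days served for comparison, 3 arrays each. Subventricular zone (SVZ) cultures of EAE rats, from a germinal zone of the forebrain, gave a level outside the cord. Nothing in the labels ties an array to an animal, so replicates may be technical, levels may share rats, and a p-value covers no more than the spread among the arrays compared.

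The developing neural tube is patterned along its length by Hox transcription factors, whose chromosomal order follows the order in which they are used from hindbrain to tail. Low-numbered paralogs begin in the hindbrain and neck, and high-numbered paralogs mark the lumbar and sacral cord. Cells grown from the adult cord often keep part of this regional code in culture, and they give rise mainly to astrocytes and oligodendrocytes. The comparison addresses which genes differ between the ends of the cord in cells expanded from diseased animals. The window of 250 bases before the start of 2 genes is shown here from RefSeq (build GRCr8), 5′ to 3′ on the strand of the gene. Both genes are described below, and neither passed the test between caudal and cervical EAE cultures. Hoxd9 had the highest rank among Hox genes, and Mag, which encodes myelin-associated glycoprotein, stands for the myelin genes. Capitals mark matches, on either strand, to the CCAAT box, the TATA box with the letters TATAAA, the Sox factor motif ACAAAG, the caudal-type homeobox motif TTTATG and the Hox-Pbx motif TGATTNAT, none of which overlap each other here.
Hoxd9, chr3:80007756-80008005, plus strand: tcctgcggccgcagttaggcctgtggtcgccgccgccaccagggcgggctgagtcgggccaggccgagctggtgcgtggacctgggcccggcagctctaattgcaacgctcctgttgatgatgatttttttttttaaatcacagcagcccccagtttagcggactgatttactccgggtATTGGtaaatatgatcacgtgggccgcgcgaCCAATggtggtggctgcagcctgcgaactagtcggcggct
Mag, chr1:95291045-95291294, minus strand: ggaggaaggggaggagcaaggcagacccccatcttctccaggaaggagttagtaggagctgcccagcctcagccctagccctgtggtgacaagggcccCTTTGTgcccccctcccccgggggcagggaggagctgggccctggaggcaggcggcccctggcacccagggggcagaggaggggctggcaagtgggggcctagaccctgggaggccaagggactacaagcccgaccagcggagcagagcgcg
The Hoxd9 window held CCAAT once on each strand and none of the other motifs. The Mag window held 1 match to ACAAAG, on the opposite strand. Among all 33469 windows of the same length, 34.0% held CCAAT, 12.9% TATAAA, 16.3% ACAAAG, 11.4% TTTATG and 2.82% TGATTNAT. A match describes letters in a window and says nothing of binding.

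Analysis used log2(signal + 16), which shrinks the fold changes of dim genes. Testing required a signal over 50 on 3 or more of the arrays compared. A call required both a fold of 1.2 or more and an adjusted p no higher than 0.05. Of 14 tested genes of the stem and progenitor list, 12 were above 50 on all 6 arrays. Among them, Sox2, which maintains neural progenitors, and Fabp7, a fatty acid binding protein of radial glia and progenitors, were bright. Cd24 of the same list, described later, was dim. Sox2 signals were 2276, 2740 and 2157 in caudal cultures, against 2609, 2831 and 3025 in cervical cultures. The cultures also held cells or transcripts of the oligodendrocyte lineage and of macrophages, described later, in both groups. The myelin gene Mbp was brighter than Sox2 on all 6 arrays. In bulk RNA of this kind, fewer cells of a type and less RNA per cell cannot be told apart. Correlations of log2 values were 0.973 to 0.987 between arrays of the same group and 0.972 to 0.984 between caudal and cervical arrays, ranges that overlap. Array medians were 79.6, 86.7 and 83.5 in caudal cultures, against 85.5, 80.5 and 73.9 in cervical cultures. Median signals of background probe sets were 25.3, 24.2 and 28.5, against 26.8, 21.8 and 19.7. One array used below for comparison, cervical naive replicate 3, stood apart from its group: Sox2 was 497 there, against 2585 and 2247 in the other cervical naive cultures, and Col1a1, a fibroblast collagen, was 4990, against 349 and 77.5.

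Only 1 probe set passed the test between the caudal and the cervical end. Of 16839 probe sets tested with limma, 1 was called, higher in caudal cultures (0.00594%), and 0 were called lower. With all 18 groups of the series in 1 fit, 68 were called higher and 1 lower. At an unadjusted p under 0.05, 932 were higher and 1834 lower. The methods' t-test, run on the same values, called 1 probe set, of Cmip, which is named after its values were seen (log2 difference -0.42, adjusted p = 0.0286). The 95% interval of the difference lay within a 2-fold change in either direction for 97.4% of probe sets. The median standard error was 0.155 on the log2 scale.

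The called gene was Shc1-ps1, a pseudogene of the signalling adaptor gene Shc1. Its signal was 115, 96.6 and 109.2 in caudal cultures, against 36.4, 29.1 and 30.8 in cervical cultures. The lowest caudal array was above the highest cervical array by a wide margin, and the cervical signals lay close to those of background probe sets. No cervical array was above 50, so the gene passed the filter only through its caudal signals and could only come out higher. Without the signal filter it was also called (adjusted p = 0.0162 by limma). The log2 difference was 1.35 ± 0.14 (SE, n = 3 each; adjusted p = 0.018 by limma). Thoracic EAE cultures, at 118, 104 and 127.6, lay in the caudal range or above it, and SVZ EAE cultures, at 42.5, 53.7 and 44.3, lay between the levels. Naive cultures overlapped: 116, 114 and 88.0 in caudal naive cultures, against 61.2, 100.2 and 224 in cervical naive cultures. Shc1 itself did not pass the test (log2 difference -0.10, adjusted p = 0.709), and the share of the signal that comes from Shc1 transcripts binding the pseudogene's probes was not tested. The call was lost after quantile normalization (1.29, adjusted p = 0.095), after 75th percentile scaling and cyclic loess, in the methods' t-test (adjusted p = 0.186), and when any cervical array was left out (adjusted p = 0.0501 to 0.282).

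The 3 named genes with higher caudal values and the smallest p also included Smokwl3, a gene named for likeness to sperm motility kinases, and RT1-S2, a class I gene of the rat major histocompatibility complex. Smokwl3 was 95.4, 72.9 and 86.4 in caudal cultures, against 35.6, 32.1 and 31.9 in cervical cultures (log2 difference 1.03 ± 0.14, adjusted p = 0.0925 by limma). RT1-S2 was 65.3, 64.3 and 63.0, against 29.2, 31.1 and 22.4 (0.88 ± 0.14, adjusted p = 0.152). Neither passed the test, and both had cervical signals near background. Like Shc1-ps1, they had no cervical array above 50, so they were tested only through their caudal signals and could only come out higher. On the other side stood Faim2, an inhibitor of Fas-mediated cell death, Slc6a8, the creatine transporter, and Cdc42ep2, an effector of the small GTPase Cdc42. Faim2 was 889, 762 and 980 in caudal cultures, against 1345, 1495 and 1636 in cervical cultures, a log2 difference of -0.76 ± 0.15. Slc6a8 was 441, 434 and 456, against 710, 708 and 656 (-0.62 ± 0.13). Cdc42ep2 was 86.2, 109.4 and 87.2, against 150, 170 and 156 (-0.67 ± 0.14). In all 3 genes every caudal array was below every cervical array, and the adjusted p was 0.256 each by limma.

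Differences depended on brightness across the whole array, which bears on every gene list. The median log2 difference over all probe sets was -0.16, and 28% of differences were positive. Among the 251 dimmest probe sets, with a mean log2 value of 5 to 6, the median was 0.27 and 88.0% were positive. Among the 2484 with a mean of 9 to 10 the median was -0.23 and 6.16% were positive. The 3 caudal arrays lay above the 3 cervical arrays, with no overlap, for 1227 probe sets (7.29%), and below them for 3138 (18.6%). Quantile normalization moved the median of all probe sets to -0.01 and turned the balance at an unadjusted p under 0.05 to 1388 higher and 797 lower. Scaling to the 75th percentile moved it to 0.02, with 2364 higher and 332 lower at that p. The part of brightness in the results that follow was not tested. Values below are as deposited, and the shift relative to all probe sets is given beside the lists.

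**Figure D1:**
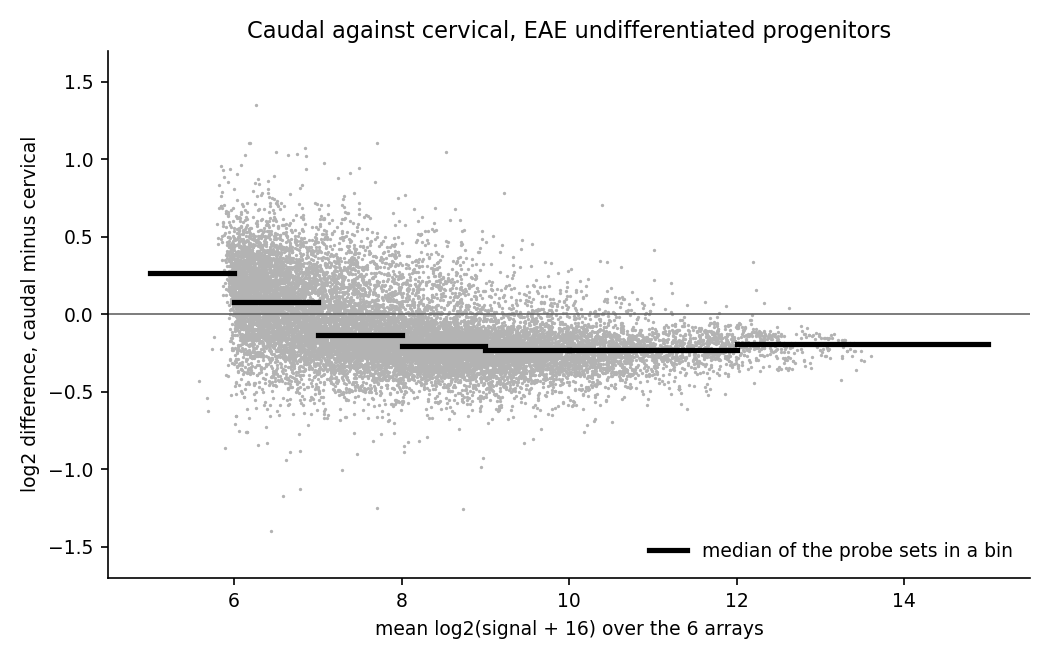
Log2 difference between 3 caudal and 3 cervical EAE undifferentiated cultures (vertical axis) against mean log2(signal + 16) over the 6 arrays (horizontal axis), 1 grey point a probe set, with the median of each brightness bin as a black line. Bin medians run from 0.27 among the dimmest probe sets to -0.23 at means of 9 to 10.

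Hox genes were tested as the genes of position. Of 32 Hox genes named on the array 19 passed the signal filter, and the other 13 were not tested. None of the 19 was called. Hoxa9 and Hoxc12 had no cervical array above 50, so they were tested only through their caudal signals and could only come out higher. Among the other 17, groups did not overlap for 5 genes, all higher in caudal cultures. Over all probe sets 7.29% were higher without overlap, and 18% of those with a mean log2 value of 6 to 7 were; 9 of the 17 had means below 7. The median log2 difference over the 17 was 0.13, against -0.16 over all probe sets tested and 0.08 over those with a mean log2 value of 6 to 7. It was 0.01 for the 9 tested genes of paralog groups 1 to 5 and 0.22 for the 4 of groups 6 to 8. For groups 9 to 13 it was 0.33 over 6 genes with Hoxa9 and Hoxc12, and 0.13 over the other 4, so the medians gave no order by paralog group. Leaving out 1 array gave 0.003 to 0.10 for groups 1 to 5 and 0.022 to 0.36 for groups 6 to 8. For groups 9 to 13, leaving out a caudal array gave 0.054 to 0.19 over 4 tested genes. Leaving out a cervical array gave 0.26 to 0.43 over 6, with Hoxa9 and Hoxc12 among them.

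Hoxd9, a posterior paralog, stood highest of the Hox genes and eighth of all probe sets by p. Its signals were 197, 187 and 190 in caudal cultures and 156, 186 and 197 in thoracic cultures, against 120, 100.9 and 98.3 in cervical cultures. The cervical values overlapped those of SVZ cultures (112.04, 129.4 and 126), and caudal and thoracic values overlapped too. The caudal minus cervical log2 difference was 0.76 ± 0.13 (95% interval 0.47 to 1.06, adjusted p = 0.256 by limma), and 0.92 relative to the median of all probe sets. Hoxa9, another posterior paralog, was 68.0, 52.3 and 52.1 in caudal cultures, against 43.1, 31.2 and 38.3 in cervical cultures. Hoxc12 was 63.5, 56.8 and 51.5, against 44.3, 38.7 and 33.0. Both were dim, with log2 differences of 0.45 and 0.42 and an adjusted p of 0.259 and 0.262.

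Some paralogs of the hindbrain, neck and upper trunk also had higher caudal values. Hoxc4 was 105, 85.7 and 113.5 in caudal cultures, against 64.9, 63.0 and 59.5 in cervical cultures (log2 difference 0.57 ± 0.14, adjusted p = 0.256 by limma). Hoxb4 was 116, 115 and 128.8, against 94.5, 93.3 and 62.7. Hoxb1 was 110, 105 and 144, against 93.6, 91.0 and 68.2. Hoxa6 was 82.2, 69.6 and 82.6, against 59.9, 65.7 and 44.5. None of these 4 overlapped between the groups, and none passed the test. Hoxa5, which marks the neck and upper trunk, overlapped between the levels. It was 303, 417 and 380 in caudal cultures, against 366, 365 and 447 in cervical cultures, whereas SVZ cultures had 2.32, 4.73 and 1.64. Its log2 difference was -0.10 as deposited and 0.10 after quantile normalization, with an interval of -0.45 to 0.25 as deposited. Hoxa2, one of the most anterior Hox genes, was 203, 311 and 240, against 307, 252 and 329, with overlap (-0.23 ± 0.18).

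**Figure D2:**
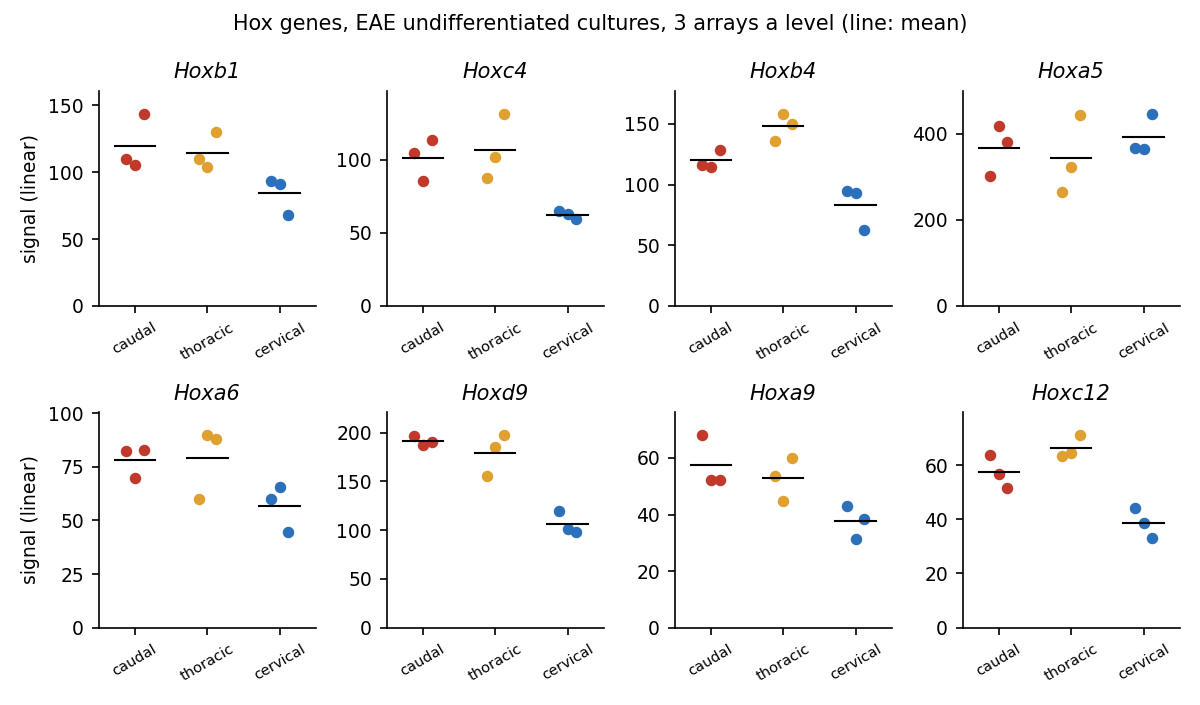
Linear signal (vertical axis, from 0) of 8 Hox genes on each of the 3 caudal, 3 thoracic and 3 cervical EAE undifferentiated arrays, with the group mean as a line. Hoxd9 sits at 187 to 197 in caudal and 98.3 to 120 in cervical cultures, and Hoxa5 overlaps at all 3 levels.

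The same contrast in other cultures gave other values for these genes. In naive undifferentiated cultures Hoxd9 was 269, 166 and 182 at the caudal level, against 189, 182 and 243 at the cervical level, with overlap and a log2 difference of -0.01 ± 0.22. In EAE cultures after 5 days of differentiation it was 142.7, 153 and 137, against 147, 155 and 166 (-0.10 ± 0.15). The difference between the EAE and naive contrasts was 0.77 ± 0.25 (adjusted p = 0.167), and that between undifferentiated and differentiated EAE contrasts was 0.87 ± 0.18 (adjusted p = 0.245 by limma). Neither passed the test. Hoxa2 had lower caudal signals without overlap in these 2 sets: 157, 156 and 174 against 219, 331 and 389 in naive undifferentiated cultures, and 41.8, 43.3 and 53.7 against 89.7, 68.1 and 69.6 in differentiated EAE cultures. Of all probe sets, 5.05% were lower without overlap in the naive set and 12.8% in the differentiated EAE set (11.5% and 0.0353% were higher), and neither Hoxa2 value passed the test (adjusted p = 0.624 and 0.662 by limma). In differentiated naive cultures Hoxa2 overlapped, at 75.7, 81.3 and 75.3 in caudal cultures, against 115, 84.5 and 80.5 in cervical cultures (-0.21 ± 0.16).

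Genes of mature oligodendrocytes, the myelin-forming cells, had lower values in caudal than in cervical EAE cultures as a list. Of 26 listed genes 25 were tested, 24 of them with all 6 arrays above 50. None was called, and 24 differences were negative. Among all probe sets, 6.16% of differences were positive at a mean log2 value of 9 to 10, and 4.03% at 10 to 12. In the list, 15 genes had all caudal arrays below all cervical arrays. The share was 18.6% over all probe sets and 28.5% of those with a mean log2 value of 9 to 10. Their median log2 difference was -0.46, against -0.18 over all genes tested, and -0.29 against -0.02 after quantile normalization. Leaving out any 1 of the 6 arrays gave medians of -0.50 to -0.35, against -0.26 to -0.11 over all genes. These counts describe the list and are no test of it.

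Myrf, the transcription factor that switches on myelin genes, was 714, 612 and 617 in caudal cultures, against 895, 936 and 971 in cervical cultures. Mag was 3052, 3104 and 3150, against 3782, 4866 and 4742. Gpr37, an orphan receptor of oligodendrocytes, was 792, 1196 and 1019, against 1476, 1583 and 1723. The caudal arrays lay below the cervical arrays in each of these genes, and the log2 differences were -0.52 ± 0.13, -0.51 ± 0.14 and -0.68 ± 0.17. Ermn, a cytoskeletal protein of myelinating cells, was 166, 190 and 140.6, against 367, 215 and 262 (-0.69 ± 0.19). Tspan2, a tetraspanin of the lineage, was 3089, 2503 and 2482, against 3971, 3855 and 3724 (-0.52 ± 0.14). Mbp, myelin basic protein, was 3990, 4556 and 3738, against 5171, 4950 and 5067 (-0.31 ± 0.14). The adjusted p was between 0.256 and 0.293 for these 6 genes by limma, and relative to the median of all probe sets their differences were -0.53 to -0.15.

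**Figure D3:**
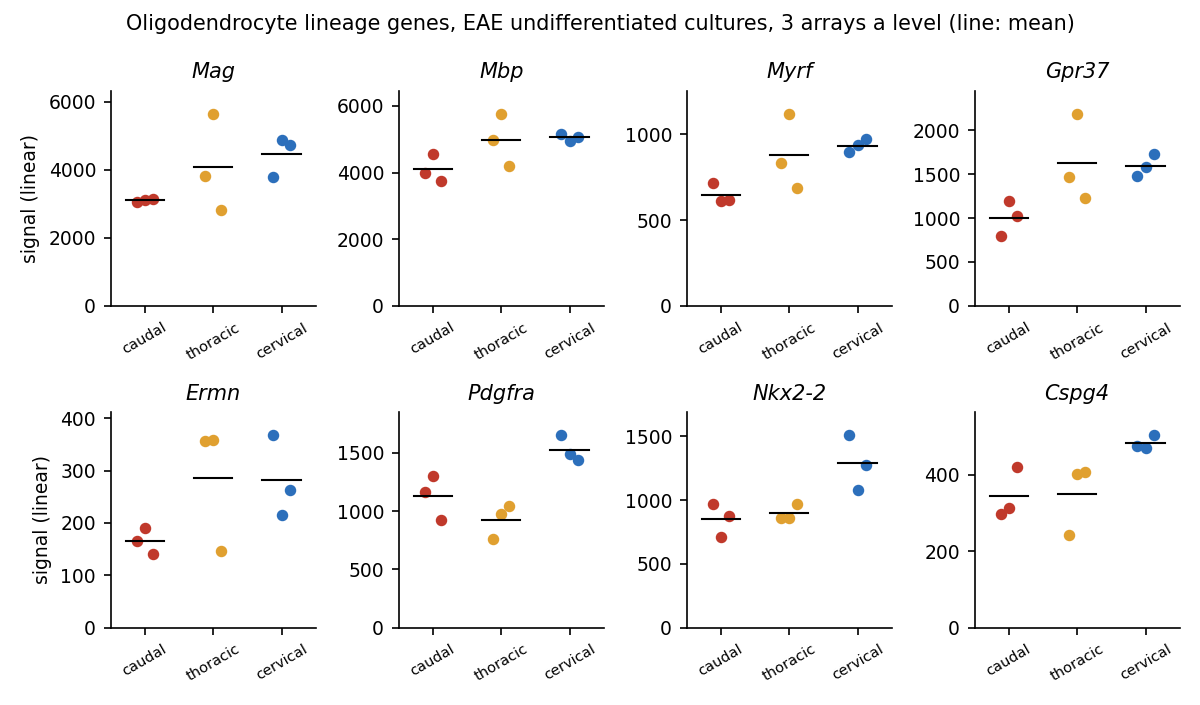
Linear signal (vertical axis, from 0) of 5 myelin genes and 3 progenitor genes of the oligodendrocyte lineage on each of the 3 caudal, 3 thoracic and 3 cervical EAE undifferentiated arrays, with the group mean as a line. Caudal arrays lie below cervical arrays in all 8 genes, and thoracic arrays overlap with both in Mag.

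The earlier stage of the lineage, the oligodendrocyte progenitor, followed with smaller differences. Of 16 tested genes 15 had negative differences. Of all probe sets with a mean log2 value of 10 to 12, 4.03% had positive ones. Caudal arrays lay below all cervical arrays for 9 of the genes, against 18.6% of all probe sets and 24.8% at those means. The median was -0.33, and -0.16 after quantile normalization. Nkx2-2, a transcription factor of the ventral cord and of progenitors about to differentiate, was 969, 712 and 874 in caudal cultures, against 1506, 1079 and 1274 in cervical cultures (-0.58 ± 0.17, adjusted p = 0.258 by limma). Pdgfra, the receptor through which platelet-derived growth factor expands these progenitors, was 1167, 1304 and 923, against 1651, 1495 and 1440 (-0.44 ± 0.16). Cspg4, the NG2 proteoglycan, was 297, 312 and 421, against 476, 469 and 503 (-0.49 ± 0.16). Ncan, a brain proteoglycan, was 550, 580 and 431, against 940, 641 and 662. Sox10, which marks the whole lineage, was closer between the groups, at 1113, 1082 and 1141, against 1151, 1328 and 1535 (-0.25 ± 0.15, adjusted p = 0.351).

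Several other lists had medians at or below that of all genes. Matrix proteases and inhibitors had a median of -0.33, with all 16 tested genes negative. Positive differences made up 28% of all probe sets, and 4.03% to 12.2% in the brightness bins from 8 to 12. Adamts4 of this list, an aggrecanase that oligodendrocytes also make, was 949, 1246 and 785 in caudal cultures, against 1599, 1581 and 1576 in cervical cultures. Its log2 difference was -0.69 ± 0.17 (adjusted p = 0.256 by limma). Feedback inhibitors of growth factor signalling had a median of -0.32. Spry2 of this list was 821, 1124 and 1062, against 1204, 1530 and 1483 (-0.49 ± 0.16). Axon guidance genes had a median of -0.24, with Sema6a, a transmembrane semaphorin, at 579, 869 and 694, against 1132, 1006 and 1114 (-0.61 ± 0.16). For BMP signalling, which steers progenitors towards astrocytes, the median was -0.19, close to that of all genes. The receptor Bmpr1a and the transducers Smad1 and Smad5, picked by small p from its 16 tested genes, had no overlap between the groups. Smad5 was 341, 415 and 375, against 533, 451 and 532. Of all probe sets 18.6% were lower without overlap, and 26.5% of those with a mean log2 value of 8 to 9. Cholesterol and fatty acid synthesis had a median of -0.19 with 9 of 27 genes lower without overlap, near the 24.8% of all probe sets with a mean log2 value of 10 to 12, and its median was 0.00 after quantile normalization. None of these lists held a called gene.

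**Figure D4:**
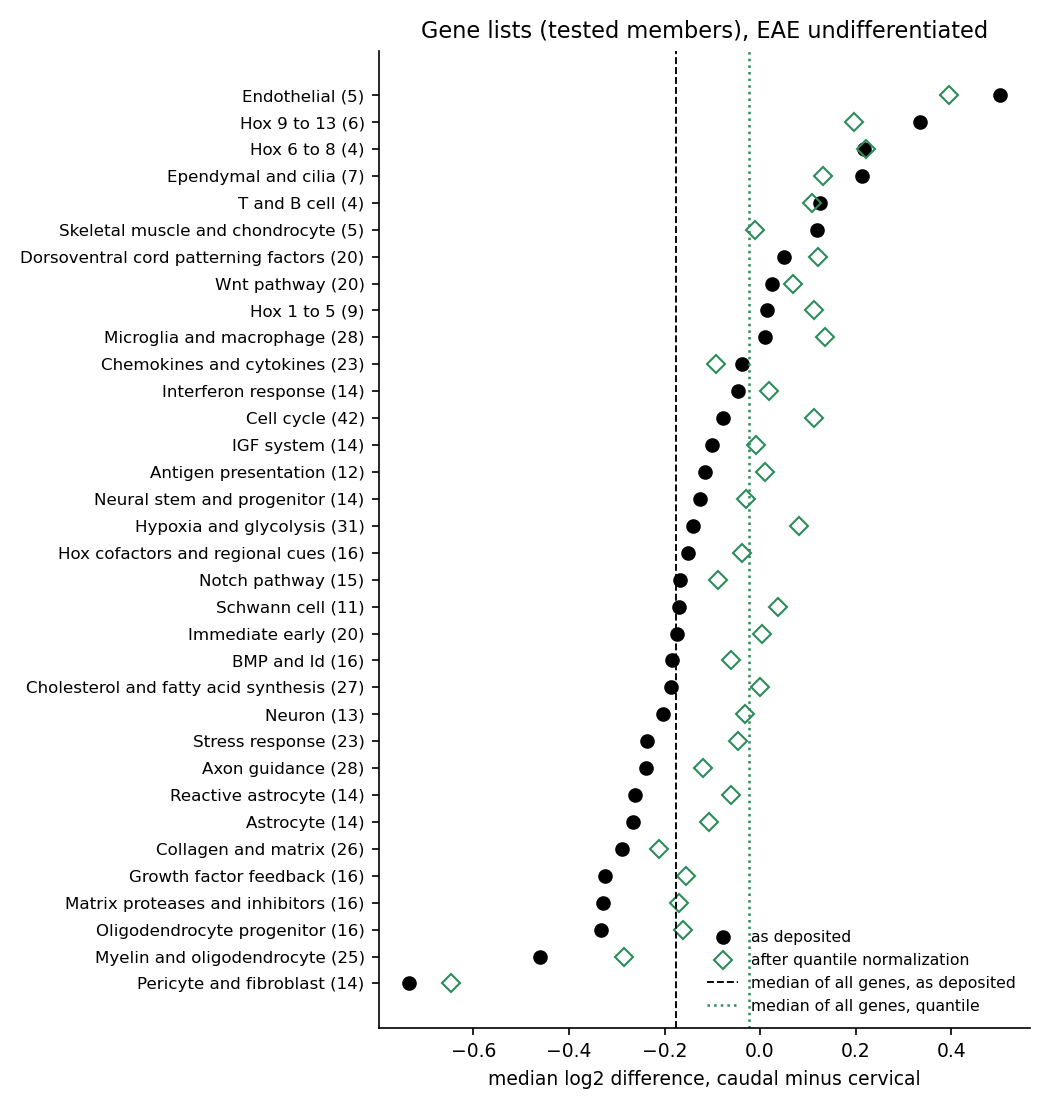
Median log2 difference, caudal minus cervical, of the tested members of each gene list (number in brackets), as deposited (filled circles) and after quantile normalization (open diamonds), with the medians of all genes as vertical lines. The myelin list lies at -0.46, and the pericyte and fibroblast list, whose median runs from -1.29 to -0.21 as 1 array is left out, at -0.74.

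Markers of neural stem and progenitor cells showed no common direction. Cd24, a surface protein of immature neural cells, was 32.8, 48.5 and 26.6 in caudal cultures, against 80.4, 60.5 and 70.9 in cervical cultures, whereas SVZ cultures had 3587, 3000 and 3426. The difference of -0.75 ± 0.18 (adjusted p = 0.256 by limma) concerned a gene that was low in all undifferentiated EAE cord cultures, with thoracic signals of 52.7, 53.3 and 30.5. No caudal array was above 50, so Cd24 was tested only through its cervical signals and could only come out lower. Sox3, a SoxB1 factor of progenitors, was 498, 568 and 570, against 449, 423 and 423 (0.32 ± 0.13). Hes5, a Notch target that keeps progenitors undifferentiated, was 171, 185 and 192, against 156, 136 and 142.03 (0.31 ± 0.13). Wnt4, a Wnt ligand, was 83.9, 92.5 and 90.9, against 65.9, 48.7 and 46.4 (0.60 ± 0.15, adjusted p = 0.256). Endothelial markers had the highest median of all lists, 0.50 over 5 tested genes, with Cldn5, Flt1, Vwf and Egfl7 higher without overlap. Of all probe sets 7.29% were higher without overlap, with 18% at mean log2 values of 6 to 7 and 34.7% at 5 to 6. Only 1 of the 5 tested genes was above 50 on all 6 arrays. The 4 named genes were dim: the caudal signals were 53.1 to 93.3 and the cervical ones 28.6 to 61.0, in the range where most probe sets had positive differences. Vwf had no cervical array above 50.

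Several lists varied more within a level than between the levels. Scores are means of log2(signal + 16) over a list. The Microglia and macrophage score was 8.62, 8.35 and 8.24 in caudal cultures, against 7.86, 8.89 and 8.47 in cervical cultures, and 5.97 to 6.53 in caudal naive cultures. None of the 28 tested genes of this list was called, had an unadjusted p under 0.05 or separated the groups. C1qa, a complement subunit made by macrophages, was 971, 781 and 784, against 431, 1377 and 974, a log2 difference of 0.01 ± 0.33. Ccl3, a chemokine of activated macrophages, was 3601, 2261 and 2002, against 786, 3981 and 3401 (0.20 ± 0.49). The wide intervals of these genes, -0.72 to 0.73 for C1qa and -0.89 to 1.29 for Ccl3, leave room for differences in either direction.

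Cervical replicate 1 was the low array for both macrophage genes, and it was also low for the Hypoxia and glycolysis score: 9.82, 9.98 and 10.21 in caudal cultures, against 9.06, 10.76 and 10.47 in cervical cultures. Vegfa, the vascular growth factor induced by low oxygen, was 2265, 1942 and 3070, against 327, 4509 and 3715. Without that array the Vegfa difference turned from 0.42 to -0.78 (adjusted p = 0.156). Fibroblast genes split the arrays differently, with Col3a1 at 4.99, 10.9 and 254 in caudal cultures, against 268, 9.23 and 375 in cervical cultures. The Pericyte and fibroblast scores were 6.12, 6.27 and 8.01, against 7.58, 6.34 and 8.46. The list had a median of -0.74, while 0 genes of 14 had an unadjusted p under 0.05. Its median was -0.21 without cervical replicate 3 and -1.29 without cervical replicate 2, and 8 genes in place of 14 were tested without caudal replicate 3, cervical replicate 1 or cervical replicate 3. The Myelin and oligodendrocyte scores ran otherwise: they were 9.90, 9.89 and 9.68 in caudal cultures, against 10.35, 10.26 and 10.23 in cervical cultures. Mki67, a marker of dividing cells, was 646, 1817 and 757, against 1298, 858 and 1093, with overlap (-0.15 ± 0.32 as deposited, 0.08 after quantile normalization).

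The thoracic cord lies between the other levels, and comparisons with them share arrays with the main one. Caudal minus thoracic, 2 of 17416 probe sets were called, both lower (0.0115%), and 662 reached an unadjusted p below 0.05. Mmp13, a collagenase, was 13.8, 13.4 and 22.2 in caudal cultures, against 125, 145 and 81.2 in thoracic cultures (-2.02 ± 0.21). No caudal array was above 50, so Mmp13 was tested only through its thoracic signals and could only come out lower. Gja1, the astrocyte gap junction protein connexin 43, which fibroblasts also make, was 35.8, 50.0 and 62.7, against 238, 175 and 188 (-1.73 ± 0.19, adjusted p = 0.0492 for both by limma). Both were lost when caudal replicate 1 or 2 or any thoracic array was left out, and 20 probe sets were called without caudal replicate 3. Both were also lost without the signal filter, after quantile normalization and in the methods' t-test, which called 0. With the replicate number as a block, other probe sets were called in their place, among them Col1a1, Fn1 and Lox, though numbers were not taken as pairs here. Of 16 tested genes of the Pericyte and fibroblast list, 7 were lower without overlap, against 7.77% of all probe sets (1.76% were higher). The scores of the list were 6.12, 6.27 and 8.01 in caudal cultures, against 8.20, 8.31 and 9.54 in thoracic cultures, and the part of fibroblasts in the 2 calls was not tested.

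Thoracic minus cervical, 16 of 17320 probe sets were called, all higher (0.0924%). They included Shc1-ps1 (1.46 ± 0.16, adjusted p = 0.00401), Mmp13 (1.79 ± 0.26) and Lbp, a lipopolysaccharide-binding protein (1.84 ± 0.27, adjusted p = 0.0207 for both by limma). Lbp was 214, 99.1 and 194 in thoracic cultures, against 48.4, 17.9 and 39.6 in cervical cultures. Smokwl3 was also among the calls. Like Shc1-ps1 and Lbp, it had no cervical array above 50. These genes were tested only through their thoracic signals and could only come out higher, so the filter set the direction of their calls. Same-numbered arrays of these groups deviated together, and with the replicate number as a block 1544 probe sets were called, 1148 higher and 396 lower. With all 18 groups in 1 fit 700 were called. Quantile normalization left 0 calls, as did leaving out thoracic replicate 1, thoracic replicate 2 or cervical replicate 3, and 171 were called without thoracic replicate 3 and 144 without cervical replicate 1. The Hoxd9 value was 0.67 ± 0.17 (adjusted p = 0.0996), beside 0.09 ± 0.14 for caudal minus thoracic. For the myelin list the medians were -0.06 for thoracic minus cervical and -0.39 for caudal minus thoracic.

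In naive undifferentiated cultures the same contrast gave 0 of 17918 called (0%), 1413 at an unadjusted p below 0.05, and 0 in the methods' t-test. With all 18 groups of the series in 1 fit, 429 were called. Intervals were wider in the fit of the 2 groups, with 70.4% of them within a 2-fold change. Across 16593 probe sets tested in both, the naive differences correlated with those of EAE cultures at r = -0.34, with no arrays in common. That value includes cervical naive replicate 3, which stood apart from its group, and none without it is given here. With the differences in differentiated cultures, r was -0.05 for EAE and -0.31 for naive rats. Mag was 4359, 5121 and 4234 in caudal naive cultures, against 4867, 2461 and 439 in cervical naive cultures, the last being the array that stood apart. The myelin median was 1.41 with that array and 0.82 without it. The difference between the EAE and naive contrasts was called for 0 of 18352 probe sets (0%), with 3334 at an unadjusted p under 0.05, and for 490 with all 18 groups in 1 fit.

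Without cervical naive replicate 3, which leaves 2 arrays in that group, the same test called 434 of 18147 probe sets (2.39%), 71 higher (0.391%) and 363 lower (2%). Without cervical naive replicate 1 it called 684. Without replicate 3, the genes described above that were called higher were Smokwl3 (1.86 ± 0.26, adjusted p = 0.0167) and RT1-S2 (1.09 ± 0.22, adjusted p = 0.0336 by limma). Those called lower were Cd24 (-3.45 ± 0.38, adjusted p = 0.00875), Gja1 (-2.83), Mmp13 (-2.84), Slc6a8 (-1.20 ± 0.28, adjusted p = 0.044) and Cdc42ep2 (-1.702 ± 0.38, adjusted p = 0.041 by limma). These values join both contrasts. The naive contrast without replicate 3 gave 2.70 for Cd24, 2.32 for Gja1, 2.60 for Mmp13, 0.58 for Slc6a8 and 1.03 for Cdc42ep2. The EAE contrast gave -0.75 for Cd24, -0.50 for Gja1, -0.62 for Slc6a8 and -0.67 for Cdc42ep2. For Smokwl3 they were -0.83 and 1.03. Slc6a8 was 740, 957 and 655 in caudal naive cultures, against 669, 392.4 and 362 in cervical naive cultures, with overlap. Of 25 myelin genes 2 were called, and of 10 Hox genes of groups 1 to 5 none was. These values rest on which cervical naive arrays are kept.

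After differentiation, caudal minus cervical EAE cultures gave 0 of 16990 called (0%), 629 at an unadjusted p below 0.05, and 0 in the methods' t-test. Here same-numbered arrays deviated together, and with the replicate number as a block 2 genes were called, both lower, named here for being the only ones: A2m, a protease inhibitor (-1.69), and Prelp, a matrix proteoglycan (-1.09). Leaving out cervical replicate 1 or replicate 2 called 12 genes each time, with A2m in both sets. Myelin and oligodendrocyte scores were 11.52, 10.97 and 11.29 in caudal cultures, against 11.51, 11.38 and 11.23 in cervical cultures, and the list's median was -0.08. Mag was 8085, 6320 and 8666, against 8155, 8365 and 8287. The difference between the undifferentiated and the differentiated contrast was called for 0 of 18153 probe sets (0%), with 1900 at an unadjusted p under 0.05 and Shc1-ps1 at the smallest adjusted p, 0.0774 (1.53 ± 0.22). In differentiated naive cultures 0 of 17059 were called (0%), 233 reached an unadjusted p below 0.05, and the methods' t-test gave none, while 0.733% of probe sets lay higher and 4.74% lower without overlap.

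**Figure D5:**
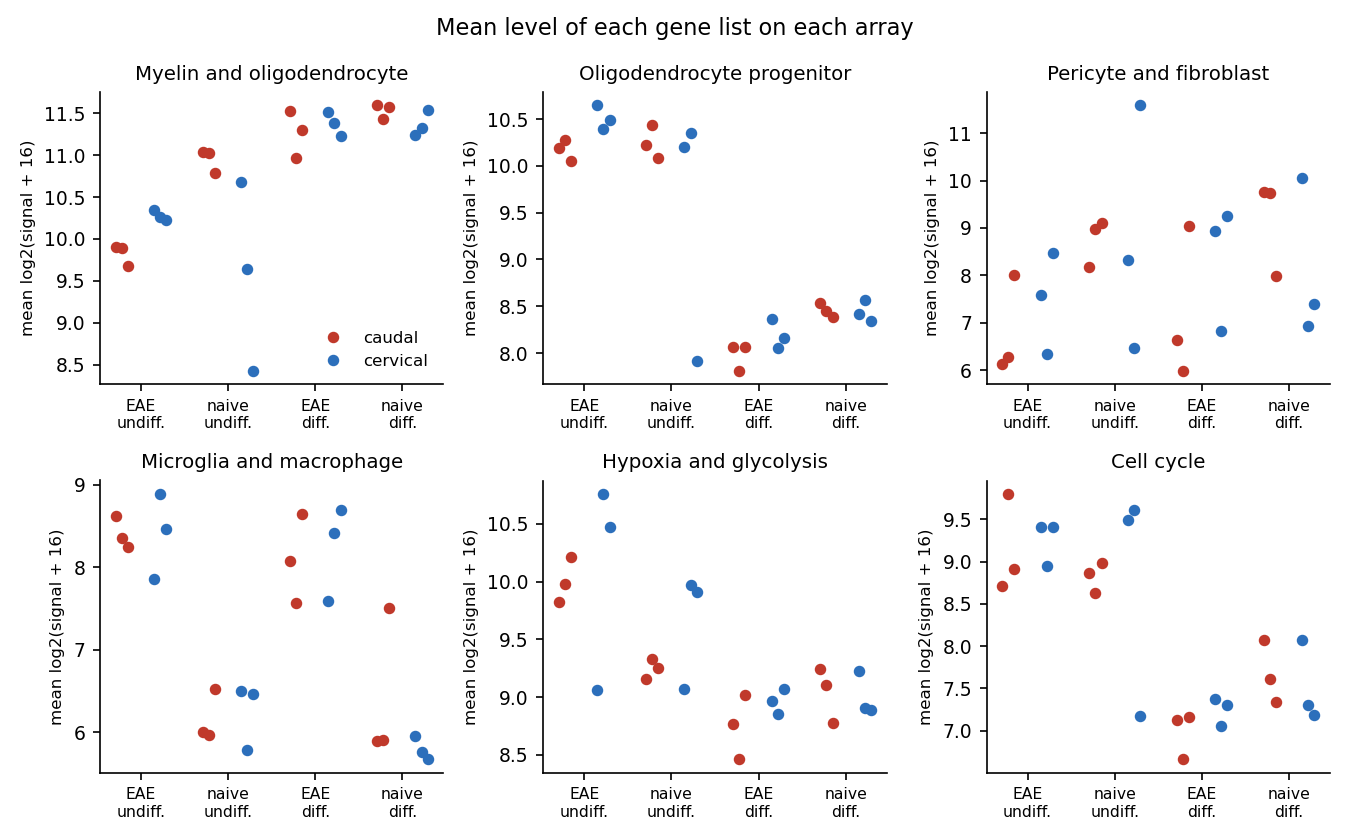
Mean log2(signal + 16) of 6 gene lists (vertical axes) on each caudal and cervical array of the 4 sets of cord cultures (horizontal axis), 3 arrays a group. Myelin scores are 9.68 to 9.90 in caudal and 10.23 to 10.35 in cervical EAE undifferentiated cultures, while cervical naive replicate 3 lies far from its group in several panels.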

How the data were processed

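The authors deposited an intensity for each probe set on 54 arrays, not log-transformed. PLIER summaries with GC-based background correction and global median normalization are recorded in the file headers, and the submitters' processing notes name Expression Console. The sources used here name neither the array type nor the genome build. Of 27342 main probe sets, 19863 carried 1 gene symbol, and 18591 of these matched the RefSeq gene table (GRCr8), used for names. A gene was shown by the probe set with the highest mean signal. The model was limma 3.58.1 (R 4.3.3) on log2(signal + 16), two-sided, holding the groups compared, with Benjamini-Hochberg adjustment over all probe sets tested. An adjusted p is from that fit unless another is named. The fit was tested on simulated data.

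The members (as a comparison to describe) and the 35 gene lists were chosen with earlier results of these data known. The rule for named genes took up to 15 called genes per direction without overlap, or the 3 with the smallest p where fewer than 3 were called. It added up to 5 genes of each list by p, every Hox gene tested and fixed markers, and in other comparisons the 3 called genes per direction with the largest change, or the 3 smallest p. The text uses a subset. Same-numbered arrays had residual correlations of 0.39, 0.32 and 0.59 in differentiated EAE cultures, and 0.65, 0.63 and 0.41 for thoracic and cervical EAE cultures. For these comparisons the count with the replicate number as a block is given beside the main count. The main fits held no block, so their counts, standard errors and adjusted p did not take numbers as pairs. Alternatives were another pseudocount, no filter, 3 other normalizations, all 18 groups in 1 fit, the block, the methods' t-test (equal variances), and fits without single arrays. Cyclic loess, the list medians without each array and the Hox counts without genes dim at the cervical level were chosen after seeing the data. The number of arrays limits the precision.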

Additional observations from a re-analysis of the deposited data

How the results depend on the processing

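The caudal minus cervical EAE undifferentiated count of 1 was 0 after quantile normalization, 75th percentile scaling, cyclic loess and with the replicate block, 0 to 0 when any 1 array was left out, and 69 (68 higher, 1 lower) with all 18 groups in 1 fit, where Smokwl3 (adjusted p = 0.00919) and RT1-S2 (adjusted p = 0.0207) were also called. Shc1-ps1 could not be tested without a caudal array, since 2 signals above 50 miss the filter. With all 18 groups the naive undifferentiated count was 429, the EAE minus naive difference 490, the differentiated EAE count 1, the stage difference 5, caudal minus thoracic 0 and thoracic minus cervical 700. The EAE minus naive difference was 1 after quantile normalization, 9 after 75th percentile scaling and 1 after cyclic loess. Caudal minus thoracic was 0 without the filter, after all 3 normalizations and in the methods' t-test, and 12 with the replicate block, among them Col1a1, Fn1 and Lox and neither Mmp13 nor Gja1. Thoracic minus cervical was 26 with log2(signal + 1), 0 after all 3 normalizations and in the methods' t-test, and 1544 with the block. The block gave 2 for differentiated EAE and 1 for differentiated naive cultures, and changed no other count of calls. In the main comparison same-numbered arrays had residual correlations of 0.05, -0.41 and 0.25, so numbers were not taken as pairs. Whether those arrays share rats or cultures is not known. Leaving out 1 array gave 0 to 0 for naive undifferentiated, 0 to 684 for EAE minus naive, 0 to 12 for differentiated EAE, 0 to 1 for the stage difference, 0 to 20 for caudal minus thoracic (20 without caudal replicate 3), 0 to 171 for thoracic minus cervical (171 without thoracic replicate 3) and 0 to 1 for differentiated naive cultures. Of the values of named genes under other settings, 707 kept sign and call, 8 lost the call (all Shc1-ps1), 2 gained one and 15 changed sign. Hoxa5 became 0.097, 0.083 and 0.11 under quantile, 75th percentile and cyclic loess, and ran from -0.20 to 0.026 as 1 array was left out (positive without caudal replicate 1). Mki67 became 0.082, 0.040 and 0.090 under those, and ran from -0.60 to 0.13 (positive without caudal replicate 1 or 3). Over the same runs C1qa spanned -0.46 to 0.36 and Ccl3 -0.53 to 0.62, both negative without caudal or cervical replicate 1. Vegfa spanned -0.78 (without cervical replicate 1) to 1.08, and Col1a1 -1.46 to 0.19 (without cervical replicate 3). The causes were not tested.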
